A study of Mus musculus with 14 samples.

Results

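The forestomach epithelium of mouse embryos labelled as a Gata4 knock-in was compared with the epithelium of the control hindstomach, to show which genes of the glandular stomach were still missing from it and which forestomach genes remained. The comparison used 6 of the 14 RNA-seq libraries of the series, chosen by their labels for region and genotype: 3 forestomach libraries of genotype "G4 cKI mutant" (replicates 1, 2 and 4) and 3 hindstomach libraries of genotype "G4 cKO control" (replicates 2, 3 and 4). All came from epithelial cells taken at stage E14.5. The 3 forestomach libraries of genotype "G4 cKI control" (replicates 2, 3 and 5) stand beside them to show levels without the knock-in. Another 5 hindstomach libraries, labelled as a Gata4 knockout, entered the filter on low values and the estimate of the spread. They also entered the alternative fits that adjust or normalize all 14 libraries together. The hindstomach controls belonged to the knockout cross and the forestomach libraries to the knock-in cross, so region, genotype and cross cannot be told apart in this comparison. Not given in the sources used here are strain, sex, the Cre driver, how the knock-in allele was built and whether embryos were pooled. Since no label ties a replicate to its own embryo, the p-values measure only a spread between samples that may be technical.

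The mouse stomach joins a forestomach, lined by stratified squamous epithelium like that of the oesophagus, to a glandular hindstomach, lined by a single layer of columnar cells that will form pits and glands. Gata4 encodes a zinc-finger transcription factor that binds GATA motifs and is found in the hindstomach endoderm but not in the forestomach. Columnar gastric cells make mucins, trefoil peptides, aspartic proteases and the proton pump, whereas squamous basal cells depend on the transcription factor Trp63 and make keratins of the stratified type.

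Gata4 as measured did not show the labelled knock-in. It stood at 65.7, 61.5 and 64.9 FPKM (fragments per kilobase of transcript, scaled to the mapped fragments of the library) in hindstomach controls 2, 3 and 4, and at 0.402, 0.319 and 1.27 FPKM in knock-in libraries 1, 2 and 4. Forestomach controls 2, 3 and 5 held 4.5, 1.33 and 0.573 FPKM, so all 3 knock-in-labelled libraries were below 2 of the 3 forestomach controls and far below the hindstomach. The log2 difference, given here and below as labelled knock-in minus control hindstomach on the log2(FPKM + 1) scale, was -5.33 (SE 0.52, limma adjusted p = 5.02e-05). Knock-in minus control forestomach did not pass (-0.75, adjusted p = 0.268). With the GC slope covariate described below it was 0.30 (adjusted p = 0.555). Forestomach control 5 lay within the range of the knock-in-labelled libraries. The label is therefore used below only as the name of these libraries, and no direction below is read as an effect of Gata4. The related factors Gata5 (-2.47, SE 0.48, adjusted p = 0.00435) and Gata6 (-2.47, SE 0.32, adjusted p = 0.000283) were also lower than in the control hindstomach. Gata6 stood at 30.3, 23.3 and 33.6 FPKM in the controls, against 4.25, 5.44 and 3.56 FPKM in the knock-in-labelled libraries.

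The libraries differed along an axis that ran with the compared groups. The slope of centred log2(FPKM + 1) per 10% of transcript GC content was 0.609, 0.565 and 0.563 in hindstomach controls 2, 3 and 4, and -0.7, -0.841 and -0.091 in knock-in libraries 1, 2 and 4. Gapdh, a glycolytic enzyme often used as a reference gene, followed the same axis, at 185, 153 and 176 FPKM in the hindstomach, and 2.68, 2.25 and 22.8 FPKM in the knock-in-labelled libraries. Forestomach control 5 shared the knock-in profile, with a slope of -0.609 and a Gapdh level of 3.11 FPKM, whereas forestomach controls 2 and 3 had slopes of 0.816 and 0.619. Relative depth, read from the steps between low values, ran from 61.6% to 100% of the deepest library in hindstomach controls and from 59.9% to 79.0% in the knock-in-labelled libraries. Absolute depth is unknown, since FPKM holds no counts. A fit with the slope as a covariate therefore stands beside the counts below. Its coefficient was fitted over all 14 libraries, including those labelled knockout, with slopes of -0.575 to 0.489. The part of this axis in the results was not tested beyond that fit. The slope is computed from the same values, so a call that stays with the covariate is no independent check.

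**Figure D1:**
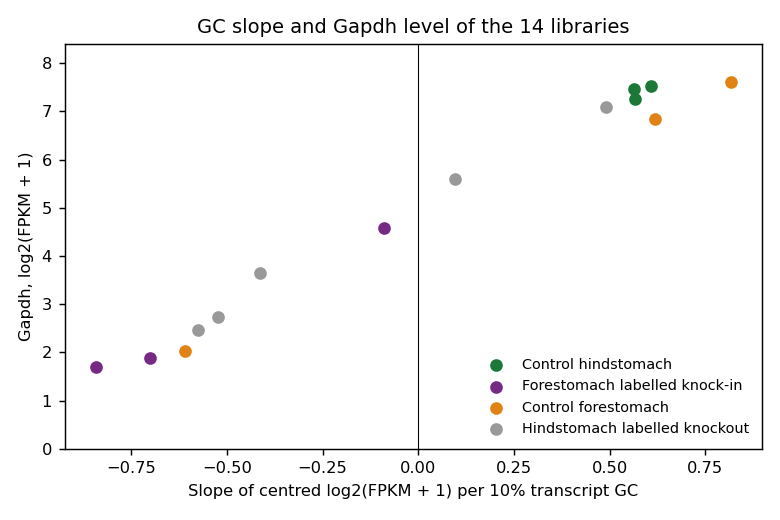
Gapdh level, as log2(FPKM + 1), against the slope of each library on transcript GC content, for all 14 libraries coloured by group. The 3 hindstomach controls lie together at slopes of 0.563 to 0.609, the 3 knock-in-labelled libraries lie below 0, and forestomach control 5 lies with them.

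Because Gata4 binds GATA motifs, promoter sequences are shown for the marker genes that had a promoter entry. They come from RefSeq on GRCm38.p6 and run 5′ to 3′ on the gene's strand from 250 bases before the start of transcription to 50 bases after it. The letters AGATAA and TGATAA were searched on both strands, and capitals mark a match. Of the 5 marker genes 3 had an entry, and Lgr5 and Trp63 had none. Cldn18, the claudin of gastric tight junctions, has a pair of promoter entries on the minus strand. The entry at chr9:99717218-99717517 held 2 matches, at positions -146 and -131 from the start, and the entry at chr9:99710014-99710313 held no match. Cym, which encodes the milk-clotting protease chymosin, held 1 match at position -141 (chr3:107221683-107221982, minus strand). The window of Tspan8, a tetraspanin of glandular epithelium, held no match (chr10:115817034-115817333, plus strand). Of 32851 promoters of 300 bases 18.6% held a match, and a match is a description of the letters and not a bound site.
Cldn18, entry with matches: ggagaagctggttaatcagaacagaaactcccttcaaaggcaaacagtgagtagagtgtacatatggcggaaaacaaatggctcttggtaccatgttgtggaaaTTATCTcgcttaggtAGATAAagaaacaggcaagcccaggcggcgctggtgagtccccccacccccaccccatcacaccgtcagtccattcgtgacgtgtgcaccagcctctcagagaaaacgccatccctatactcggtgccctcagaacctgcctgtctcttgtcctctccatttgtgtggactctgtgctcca
Cldn18, entry without a match: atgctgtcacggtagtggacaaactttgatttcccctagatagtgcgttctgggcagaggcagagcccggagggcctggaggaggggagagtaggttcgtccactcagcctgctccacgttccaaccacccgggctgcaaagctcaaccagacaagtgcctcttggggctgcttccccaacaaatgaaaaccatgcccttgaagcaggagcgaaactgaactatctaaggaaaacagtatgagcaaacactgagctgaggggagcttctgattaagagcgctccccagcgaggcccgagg
Cym: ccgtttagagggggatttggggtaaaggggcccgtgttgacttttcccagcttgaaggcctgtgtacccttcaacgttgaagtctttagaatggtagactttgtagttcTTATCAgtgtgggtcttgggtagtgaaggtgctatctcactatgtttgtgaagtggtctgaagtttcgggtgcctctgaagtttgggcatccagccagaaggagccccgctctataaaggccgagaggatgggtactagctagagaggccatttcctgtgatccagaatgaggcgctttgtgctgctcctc
Tspan8: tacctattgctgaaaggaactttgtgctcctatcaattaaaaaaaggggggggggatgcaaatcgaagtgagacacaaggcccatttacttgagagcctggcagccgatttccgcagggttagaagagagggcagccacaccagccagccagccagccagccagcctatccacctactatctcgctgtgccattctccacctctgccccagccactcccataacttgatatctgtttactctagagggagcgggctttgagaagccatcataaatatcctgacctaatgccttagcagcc

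The marker genes fell into 3 kinds of level. Cldn18 stood at 229, 131 and 257 FPKM in the hindstomach controls and at 0.477, 0.814 and 0.761 FPKM in the knock-in-labelled libraries. Forestomach controls held 0.213, 0.521 and 0 FPKM, so the knock-in values lay close to the forestomach and every hindstomach control lay far above them. The log2 difference of Cldn18 was -6.89 (SE 0.43, limma adjusted p = 3.25e-06), and knock-in minus control forestomach was 0.45 (adjusted p = 0.414). Cym and Tspan8 were lower than in the hindstomach but above the forestomach. Cym stood at 3555, 1776 and 5947 FPKM in the hindstomach controls, 8.69, 7.82 and 76.8 FPKM in the knock-in-labelled libraries and 1.49, 1.2 and 0.051 FPKM in the forestomach controls. Knock-in library 4 thus held far more Cym than the other two, and all 3 exceeded every forestomach control. The difference of Cym from the hindstomach was -7.48 (SE 0.88, adjusted p = 0.000152) and that from the control forestomach 3.39 (adjusted p = 0.0453). Tspan8 stood at 288, 227 and 255, then 17.9, 13.7 and 36, then 1.65, 2.23 and 1.57 FPKM in the same order of groups. No library of one group overlapped another, with differences of -3.56 (SE 0.27, adjusted p = 1.16e-05) from the hindstomach and 2.95 (adjusted p = 0.000163) from the forestomach.

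Lgr5, a Wnt-pathway receptor for R-spondins that marks gastric stem cells, was at hindstomach level. It stood at 7.88, 7.36 and 10.7 FPKM in the hindstomach controls and 11.4, 9.85 and 13.4 FPKM in the knock-in-labelled libraries, whose ranges overlapped. The forestomach controls held 0.188, 0.1 and 0.323 FPKM, all below every knock-in-labelled library. The difference from the hindstomach was 0.39 (95% interval -0.07 to 0.84, limma adjusted p = 0.138), and that from the forestomach was 3.38 (adjusted p = 6.83e-06). Trp63 remained at forestomach level. It stood at 2.94, 1.61 and 0.949 FPKM in the hindstomach controls, 47, 45.7 and 54.4 FPKM in the knock-in-labelled libraries and 35.4, 66.8 and 61.2 FPKM in the forestomach controls. Its difference was 4.20 (SE 0.57, adjusted p = 0.000423) from the hindstomach and -0.10 (95% interval -1.34 to 1.13) from the forestomach. By these markers, the knock-in-labelled libraries held a squamous basal factor together with Lgr5 and part of the Tspan8 and Cym signal, a set that neither control held. In bulk RNA, fewer cells of a type and less RNA per cell cannot be told apart.

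**Figure D2:**
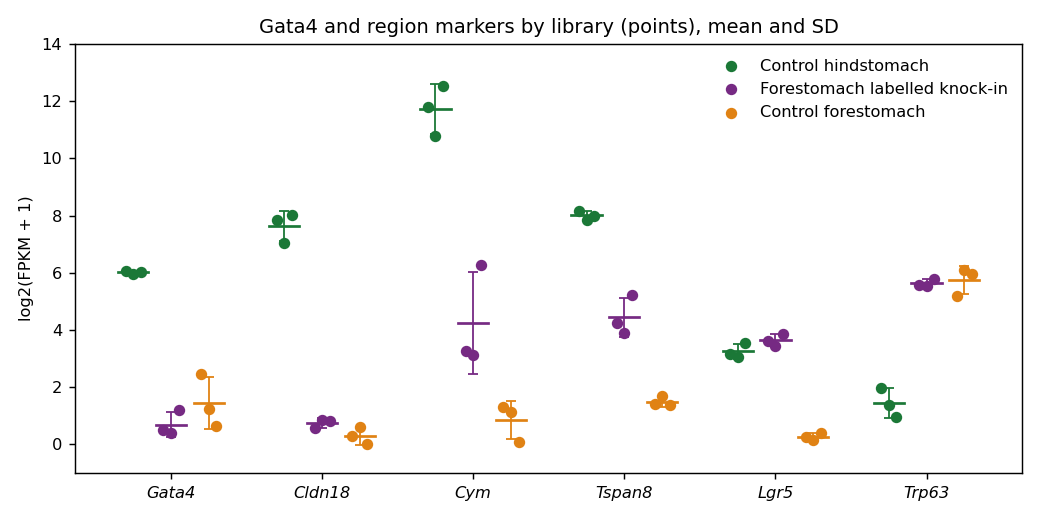
Levels of Gata4 and the 5 marker genes as log2(FPKM + 1), with 1 point per library and the mean and SD of each group of 3. The knock-in-labelled libraries lie at forestomach level for Gata4, Cldn18 and Trp63, between the regions for Cym and Tspan8, and at hindstomach level for Lgr5.

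Across the 12694 genes tested, 4697 (37.0%) were lower in the knock-in-labelled libraries than in control hindstomach and 1670 (13.2%) were higher, or 50.2% in either direction, at a limma adjusted p under 0.05. The libraries of the groups did not overlap for 66.8% of all genes. The median log2 difference of all genes was -0.36, which moved to -0.05 with libraries rescaled to a common sum and to 0.17 with quantile normalization. Of all calls 26.2% were higher, against 42.9% with the common sum and 54.8% with quantile normalization. With the GC slope covariate 800 genes (6.3%) were lower and 407 (3.21%) higher. These totals depended on single libraries. Without hindstomach controls 2, 3 or 4 in turn, 1405, 1762 and 1167 genes were lower and 608, 766 and 458 higher. Without knock-in libraries 1 and 2, 1099 and 996 were lower and 422 and 628 higher, and without knock-in library 4 the counts were 5605 and 1803. Among the genes named by the rule of choice, 145 were called, of which 88 were called in each of the 6 fits without a library, and 76 of those also with the slope covariate. Members of each group of genes below are read against these shares.

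Genes of glandular secretion were still missing. Of 58 genes on the lists of gastric enzymes, mucous cells and acid secretion, 41 passed the filter on low values, and 36 of these 41 were lower, against 37.0% of all genes. A member could pass the filter through the hindstomach controls alone, so this count describes the genes and does not measure the lists. The median difference of the 41 was -2.94, beside -0.36 for all genes, and 31 were lower with the slope covariate. In 20 of the 36, all 3 knock-in-labelled libraries were below 1 FPKM. Leaving out a library in turn gave 31 to 37 lower. The 15 other members in the table did not pass the filter and reached at most 3.91 FPKM (Slc9a4) in any of the 6 libraries, and 2 listed names were not found.

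Among the gastric enzymes, 8 of 10 genes tested were lower, with a list median of -4.37. Pgc, the precursor of the gastric protease pepsin C, stood at 18.1, 9.51 and 39.5 FPKM in hindstomach controls and at 0.085, 0 and 0.038 FPKM in the knock-in-labelled libraries (-4.27, SE 0.41, limma adjusted p = 4.24e-05). The pepsinogen gene Pga5, which has close copies, stood at 11.4, 7.19 and 27.2 FPKM in the hindstomach, and was listed at 0 in all 3 knock-in-labelled libraries (adjusted p = 2.86e-05). Pla2g1b, a secreted phospholipase, was also listed at 0 in all 3, against 30.2, 11.8 and 26.6 FPKM. Ctse, the aspartic protease cathepsin E of surface cells, stood at 68.5, 32 and 96.9 FPKM in the hindstomach, and 0.717, 0.435 and 3.02 FPKM in the knock-in-labelled libraries. Knock-in library 4 was the highest of the 3 for Ctse, as for Cym, and still lay below every control. Bpifb1, a secreted defence protein, had a difference of -5.88 (adjusted p = 0.000558) and Clps, the cofactor of pancreatic lipase, one of -5.03 (adjusted p = 0.000428). Gif, which encodes intrinsic factor, was listed at 0 in all 3 knock-in-labelled libraries and at 1.3, 0.405 and 4.8 FPKM in the controls. Its call (adjusted p = 0.0177) ended without knock-in library 1 or 2 (at most 0.0585) and with the slope covariate (0.0967). Ctsh, a cysteine protease of lysosomes, did not pass (-0.06, 95% interval -0.85 to 0.73).

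Of 19 mucous and surface cell genes 18 were lower, with a median of -2.96, and 15 with the slope covariate. Agr2, a disulphide isomerase needed for mucin folding, stood at 177, 112 and 119 FPKM in hindstomach controls and at 0.087, 0.207 and 1.1 FPKM in the knock-in-labelled libraries. Forestomach controls held 2.25, 3.42 and 0.093 FPKM, so 2 of them exceeded every knock-in-labelled library. The difference of Agr2 from the hindstomach was -6.58 (SE 0.52, limma adjusted p = 1.39e-05). Anxa10, an annexin of gastric surface cells, stood at 74.2, 21.1 and 89 FPKM in the hindstomach, and reached 0.11 FPKM in knock-in library 4, with 0 listed in the others (-5.68, adjusted p = 5.33e-05). The trefoil peptides, which stabilise gastric mucus, were missing together. Tff1 stood at 23.9, 9.98 and 33.1 FPKM in controls and 0, 0.1 and 0.229 FPKM in the knock-in-labelled libraries, Tff2 at 10.2, 4.51 and 11.8 and 0.128, 0 and 0.466 FPKM. Tff3 was listed at 0 in all 3 knock-in-labelled libraries and in all 3 forestomach controls, against 4.34, 3.97 and 7.81 FPKM in the hindstomach. The mucin Muc5ac (-2.94, adjusted p = 0.000141), the gastrokine Gkn3 (-1.82, adjusted p = 6.43e-06) and Spdef, a transcription factor of mucous cells (-3.51, adjusted p = 0.000577), were likewise lower. St3gal6, a sialyltransferase, was the member called higher (1.14, adjusted p = 0.0232), a call that ended with the slope covariate (0.379) and without hindstomach control 2 or 4 or knock-in library 1 or 2 (at most 0.0892).

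For acid secretion 10 of 12 genes were lower, with a median of -2.68, and 9 with the slope covariate. Atp4b, a subunit of the proton pump, stood at 33.5, 24.3 and 66.8 FPKM in hindstomach controls and was listed at 0 in every knock-in-labelled library and every forestomach control (limma adjusted p = 6.04e-07). Kcne2, a potassium channel subunit that works with the pump, stood at 6.64, 3.3 and 12 and 0.136, 0.08 and 0.151 FPKM in hindstomach controls and knock-in-labelled libraries (-2.75, adjusted p = 6.7e-05). Its channel partner Kcnq1 (-1.91, adjusted p = 0.000637), the chloride transporter Slc26a9 (-2.77, adjusted p = 0.000328) and the carbonic anhydrase Car2 (-3.66, adjusted p = 0.000195) were lower too. Slc4a2, an anion exchanger, was called (-2.82, adjusted p = 0.0168) but not with the slope covariate (0.134) or without hindstomach control 4 or knock-in library 1 or 2 (at most 0.0665). It was also low in forestomach control 5, at 0.543 FPKM beside 8.4 and 9.18 FPKM in the other forestomach controls.

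**Figure D3:**
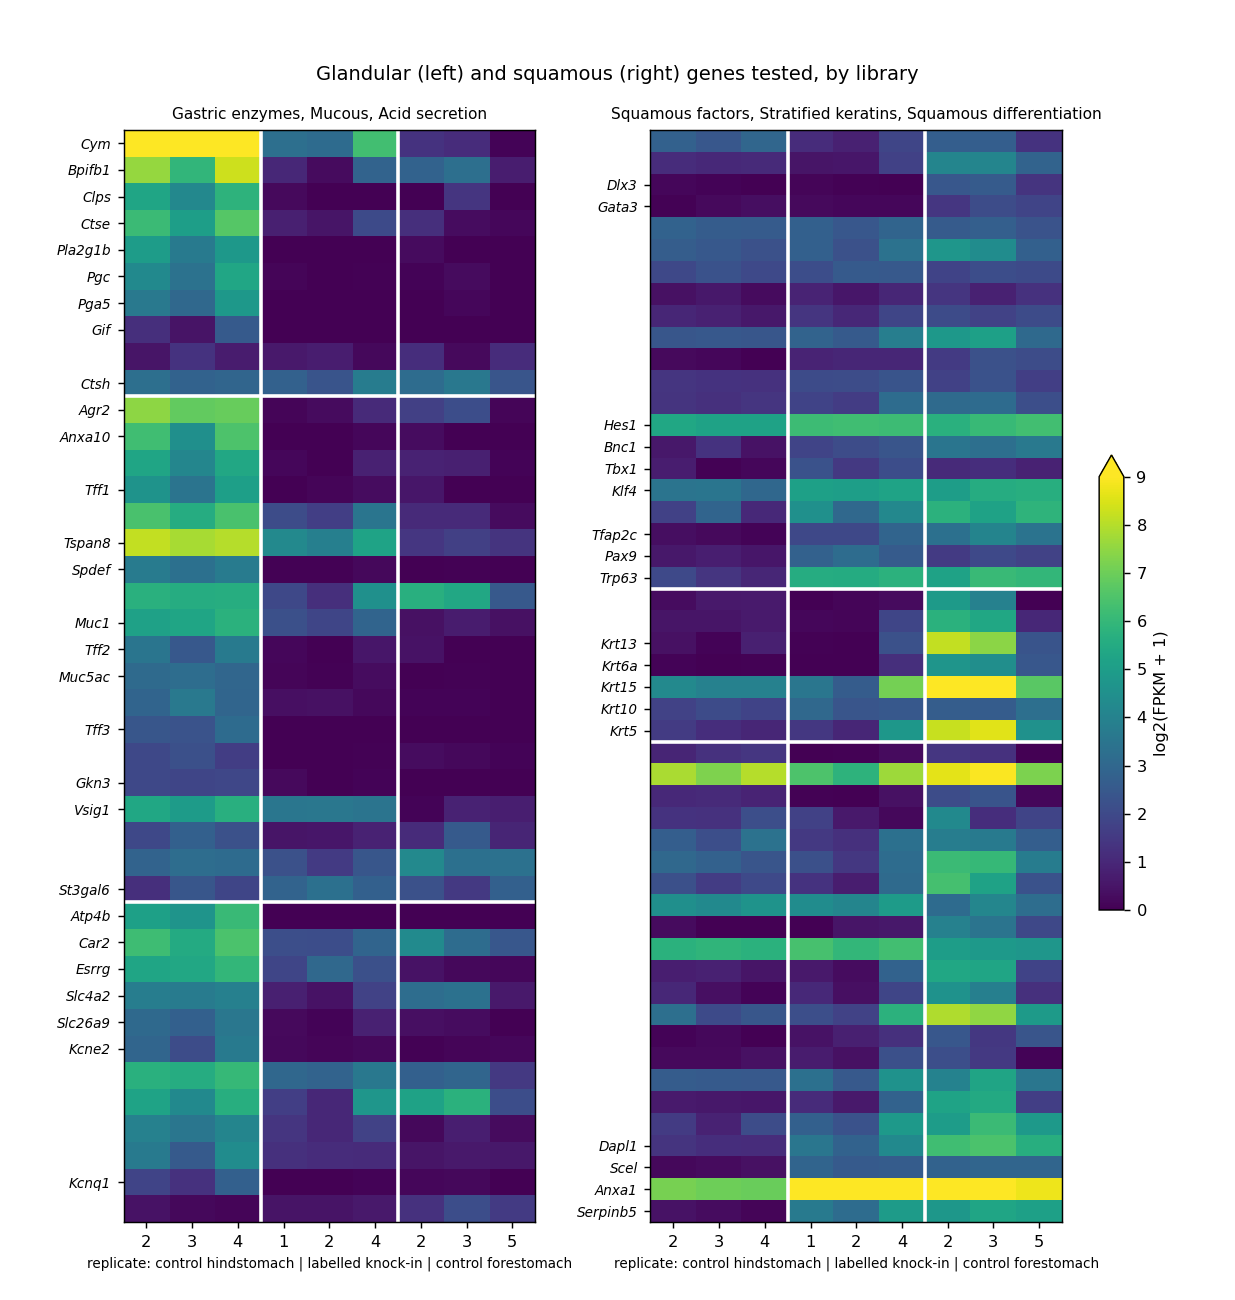
Levels, as log2(FPKM + 1), of genes tested from the glandular lists (left) and the squamous lists (right) in 9 libraries, with the genes of each list ordered by their difference from the control hindstomach and the genes named in the text labelled. The colour scale ends at 9, so the levels of Cym, Krt15 and Anxa1 above it share 1 colour. Most glandular genes are dark in the knock-in-labelled libraries, while Tspan8, Vsig1, Muc1 and Esrrg keep a signal there, and the keratins are bright mainly in forestomach controls 2 and 3.

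A smaller set of glandular genes stood between the regions, lower than in control hindstomach and higher than in control forestomach. Among the 41 glandular genes 5 were higher and 2 lower in the knock-in-labelled libraries than in control forestomach, where 2.62% of all genes were higher and 3.22% lower. The 2 comparisons share the knock-in-labelled libraries, so their values are given side by side only. Vsig1, an adhesion protein of gastric epithelium, stood at 39.7, 30.0 and 49.9 FPKM in the hindstomach controls, 10.6, 10.9 and 10.1 FPKM in the knock-in-labelled libraries and 0.073, 0.814 and 0.709 FPKM in the forestomach controls. The 3 groups did not overlap and the knock-in-labelled libraries lay within 1 FPKM of each other. Vsig1 differed by -1.80 from the hindstomach (SE 0.26, limma adjusted p = 0.000696) and by 2.95 from the forestomach (adjusted p = 0.000127). Muc1, a cell-surface mucin, stood at 34.7, 38.3 and 52.5, then 3.57, 2.72 and 6.54, then 0.339, 0.617 and 0.315 FPKM, with differences of -3.07 (adjusted p = 0.000111) and 1.83 (adjusted p = 0.0142). Esrrg, a nuclear receptor of parietal cells, held 38.4, 41.5 and 61.1 FPKM in the hindstomach, 2.72, 7.16 and 3.62 FPKM in the knock-in-labelled libraries and 0.358, 0.147 and 0.127 FPKM in the forestomach (-3.18, adjusted p = 9.64e-05, and 2.11, adjusted p = 0.0072). The difference of each of these 3 genes from the hindstomach was also called in each fit without a library and with the slope covariate. Their excess over the forestomach was called with the covariate too, and without each knock-in-labelled library except that Muc1 did not pass without library 1 (adjusted p = 0.0525). The same excess of Cym did not pass without knock-in library 1 or 2 (at most 0.0969).

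Genes of small-molecule metabolism divided in the same way. Of 23 detoxification genes 15 were lower than in the hindstomach and 3 higher, with a median of -1.66, and 10 and 2 with the slope covariate. Sult1d1, a sulfotransferase, stood at 41.9, 52.7 and 51.1 FPKM in hindstomach controls and 0.023, 0.218 and 0.104 FPKM in the knock-in-labelled libraries (-5.47, SE 0.19, limma adjusted p = 8.32e-09). Gstm1, a glutathione transferase, stood at 219, 199 and 253 and 0.805, 0.324 and 4.41 FPKM, with 13, 7.77 and 0.913 FPKM in the forestomach controls (-6.57, adjusted p = 0.000328). Unlike these, the aldo-keto reductase Akr1c19 kept a level between the regions, at 148, 134 and 140.2 FPKM in the hindstomach, 42.3, 18.1 and 17.6 FPKM in the knock-in-labelled libraries and 0.966, 1.61 and 2.19 FPKM in the forestomach. Its differences were -2.51 (adjusted p = 0.000149) and 3.29 (adjusted p = 0.000127). Its relative Akr1c12 differed by -3.24 (adjusted p = 1.03e-06) and 1.77 (adjusted p = 0.00033), and the glucuronosyltransferase Ugt2b34 by -2.47 (adjusted p = 0.000104) and 1.99 (adjusted p = 0.00256). These are multigene families whose reads the authors' counting could split. Ugt1a6a and Ugt1a6b, which share most of their exons, were both higher than in the hindstomach (2.37 and 3.09, adjusted p = 0.00616 and 0.00252).

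Some plasma and intestinal protein genes that the control hindstomach transcribed were also missing. Of 11 plasma protein genes 6 were lower, with 4 under the slope covariate. Apoa1, an apolipoprotein, stood at 35.3, 21.6 and 51.4 FPKM in hindstomach controls and was listed at 0 in all 3 knock-in-labelled libraries (limma adjusted p = 2.86e-05). Ttr, the carrier of thyroid hormone, stood at 27.5, 16.3 and 29.5 FPKM and 0.737, 0 and 0.044 FPKM (-4.34, adjusted p = 0.000149). Habp2, a hyaluronan-binding serine protease, kept 5, 1.89 and 7.25 FPKM against 56.5, 44.8 and 70.5 FPKM in the hindstomach and 0.039, 0.119 and 0.029 FPKM in the forestomach (-3.46, adjusted p = 0.000165, and 2.30, adjusted p = 0.0113, 0.0567 without knock-in library 1). Lgals4, a galectin of the gut surface, was nearly absent, at 58.4, 72.5 and 81 FPKM in controls and 0, 0.116 and 0.445 FPKM in the knock-in-labelled libraries (-5.92, adjusted p = 0.000104). Of 7 enteroendocrine genes 2 were lower, a share below the 37.0% of all genes, and the list median of -0.37 was near the -0.36 of all genes. The 2 were the endocrine transcription factors Rfx6 (-1.92, adjusted p = 0.000141) and Isl1 (-2.62, adjusted p = 0.000212).

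Transcription factors of the gut endoderm were lower for 12 of 23 genes and higher for 4, with a median of -1.38, and 9 and 1 with the slope covariate. Hnf4a, a nuclear receptor of gut and liver epithelium, stood at 20.8, 18.6 and 24 FPKM in hindstomach controls and at 0.47, 0.318 and 1.16 FPKM in the knock-in-labelled libraries, with 0.062, 0.018 and 0 FPKM in the forestomach controls. The knock-in-labelled libraries were thus far below the hindstomach, although each lay above every forestomach control (-3.77, SE 0.34, limma adjusted p = 2.86e-05, and 0.65, adjusted p = 0.161). Foxa3, a forkhead factor, showed the same order, at 14, 10.3 and 13.1 FPKM in the hindstomach and 0.526, 0.292 and 1.53 FPKM in the knock-in-labelled libraries (-2.97, adjusted p = 5.54e-05). Hnf4g, a relative of Hnf4a, stood between the regions, at 6.11, 6.48 and 7.17, then 2.21, 1.89 and 1.18, then 0.009, 0.15 and 0.122 FPKM (-1.48, adjusted p = 0.000395, and 1.32, adjusted p = 0.00434). Pdx1, the factor of the antrum, duodenum and pancreas, was listed at 0 in all 6 forestomach libraries and at 1.77, 1.95 and 1.17 FPKM in the hindstomach. Zfpm1, which encodes the Gata cofactor FOG-1, was lower (-2.12, adjusted p = 0.000357).

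Other foregut genes did not pass against the hindstomach and were higher than in the forestomach. Sox21, a factor of the foregut epithelium, stood at 33.1, 25.1 and 25.6 FPKM in hindstomach controls and 29.6, 27.3 and 33.7 FPKM in the knock-in-labelled libraries, against 8.05, 11.4 and 14.1 FPKM in the forestomach controls. The first pair of groups overlapped, and both lay above every forestomach control (0.11, 95% interval -0.46 to 0.69, and 1.38, limma adjusted p = 0.0159). The forkhead factor Foxa1 stood at 100.1, 91.9 and 101 FPKM, 73.2, 85.9 and 75.4 FPKM and 18.5, 28.1 and 43.8 FPKM in the same order (-0.32, 95% interval -0.93 to 0.29, and 1.42, adjusted p = 0.0183). Each knock-in-labelled library was below each hindstomach control for Foxa1, which was called lower with the slope covariate (-0.97, adjusted p = 0.0235). Lgr4, a receptor of the Lgr5 family, stood at 70.0, 72.1 and 83.7, then 69.9, 73.8 and 67, then 19.8, 36.9 and 43.5 FPKM (-0.09, 95% interval -0.60 to 0.41, and 1.12, adjusted p = 0.023). Epcam, an adhesion protein of simple epithelium, stood at 408, 349 and 388 FPKM in the hindstomach, 430.2, 340.2 and 422 FPKM in the knock-in-labelled libraries and 121, 224 and 225 FPKM in the forestomach (0.05, 95% interval -0.54 to 0.65, and 1.11, adjusted p = 0.0393). Pls1, an actin-bundling protein of microvilli, also exceeded the forestomach (1.98, adjusted p = 0.00114) and differed from the hindstomach by 0.52 (95% interval 0.00 to 1.04). For these genes the difference from the hindstomach did not pass, which does not show that the levels were the same. The excess over the forestomach of Sox21, Foxa1, Lgr4 and Epcam did not pass without knock-in library 1 or 2 (at most 0.0602, 0.0865, 0.102 and 0.129), whereas that of Lgr5 and Pls1 passed in each fit without a knock-in-labelled library. That of Epcam also ended with the slope covariate (adjusted p = 0.0858).

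Several genes were higher in the knock-in-labelled libraries than in both controls. Nup62cl, which encodes a protein like the nucleoporin Nup62, stood at 16.5, 13.6 and 9.71 FPKM, against 0.266, 0.542 and 0.312 FPKM in the hindstomach and 0.193, 0.078 and 0.285 FPKM in the forestomach. Every knock-in-labelled library was thus above 9 FPKM and every control below 1, with differences of 3.36 (SE 0.21, limma adjusted p = 3.25e-06) and 3.57 (adjusted p = 6.27e-06). Cldn10, a pore-forming claudin, stood at 28.4, 17.5 and 29.7 FPKM, against 3.5, 3.37 and 1.4 and 9.51, 11.5 and 8.98 FPKM in the hindstomach and forestomach (2.82, adjusted p = 6.25e-05, and 1.22, adjusted p = 0.0355). Pax9, a paired-box factor of the foregut and oesophagus, stood at 5.97, 8.01 and 5.04 FPKM, against 0.499, 0.683 and 0.467 and 1.88, 3.01 and 2.42 FPKM (2.23, adjusted p = 0.000328, and 1.09, adjusted p = 0.0492). Tbx1, a T-box factor of the pharyngeal region, differed by 1.65 (adjusted p = 0.000432) and 0.93 (adjusted p = 0.038), and Adh7, a retinol and alcohol dehydrogenase of the upper digestive tract, by 1.11 (adjusted p = 0.000637) and 1.35 (adjusted p = 0.00114). Sp5, a target gene of Wnt signalling, differed by 1.40 (adjusted p = 0.0013) and 0.98 (adjusted p = 0.0332). The excess over the forestomach of Nup62cl and Adh7 passed without each knock-in-labelled library in turn. That of Cldn10 and Tbx1 did not pass without library 1 (adjusted p = 0.126 and 0.134), nor did that of Pax9 and Sp5 without library 1 or 2 (at most 0.202 and 0.115). That of Pax9 was also lost with the slope covariate (0.75, adjusted p = 0.116).

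The retinal dehydrogenase Aldh1a1 and the foregut factor Sox2 were also above both controls in every library, but not every test of them passed. Aldh1a1 stood at 113, 104 and 105 FPKM in the knock-in-labelled libraries, 45.9, 40.0 and 71.1 FPKM in the hindstomach and 15.9, 22.4 and 15.4 FPKM in the forestomach. It exceeded the forestomach by 2.54 (limma adjusted p = 0.000518) and the hindstomach by 1.07 (adjusted p = 0.0146), the latter call ending with the slope covariate (0.131) and without hindstomach control 2 or 3 or knock-in library 1 (at most 0.0547). Sox2 stood at 225, 250.3 and 199 FPKM, against 78.1, 78.5 and 64.2 FPKM in the hindstomach and 67.2, 90.1 and 143 FPKM in the forestomach, where control 5 was highest. Its difference was 1.60 from the hindstomach (adjusted p = 0.00638, 0.0919 with the slope covariate) and 1.22 from the forestomach (adjusted p = 0.0505). Without forestomach control 5 and knockout library 5 the latter was 1.51 (adjusted p = 0.00337), and with the slope covariate 0.64 (0.128).

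**Figure D4:**
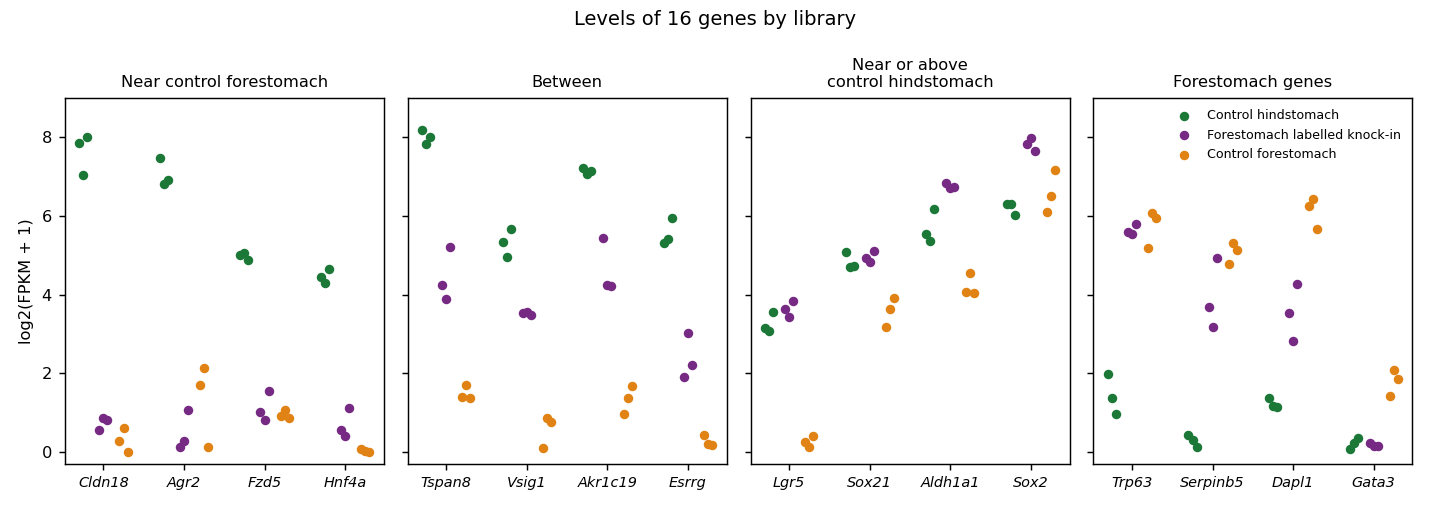
Levels of 16 genes as log2(FPKM + 1) in hindstomach controls, knock-in-labelled libraries and forestomach controls, 1 point per library. The panels hold genes near the forestomach level, between the regions, near or above the hindstomach level, and forestomach genes, of which Trp63, Serpinb5 and Dapl1 remained while Gata3 was at hindstomach level.

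Forestomach genes remained in part. Of 78 genes on the squamous lists of transcription factors, stratified keratins and differentiation genes, 51 passed the filter, and 18 of these were higher than in control hindstomach, against 13.2% of all genes, and 2 lower. Their median difference was 0.64, beside -0.36 for all genes. With the slope covariate 22 were higher, and leaving out a library in turn gave 13 to 16, or fewer than 18 in each case. Against the control forestomach 14 of the 51 were lower and 3 higher, where 3.22% of all genes were lower and 2.62% higher. A member could pass the filter through the forestomach controls alone, so these counts describe the genes and do not measure the lists. The 25 other members in the table did not pass the filter and stayed below 1 FPKM in all 6 libraries, and 2 listed names were not found.

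Of 22 squamous transcription factors 11 were higher than in the hindstomach, 10 with the slope covariate. After Trp63, Tfap2c, an AP-2 factor of surface ectoderm and squamous cells, stood at 0.268, 0.182 and 0.068 FPKM in hindstomach controls and 2.84, 2.83 and 6.5 FPKM in the knock-in-labelled libraries. The forestomach controls held 9.07, 15.6 and 9.67 FPKM, so this factor remained at a lower level (2.04, limma adjusted p = 0.00119, and -1.34, adjusted p = 0.0371, at most 0.164 without knock-in library 1 or 2). The zinc-finger factor Bnc1 of basal keratinocytes differed by 1.33 (adjusted p = 0.0146, at most 0.0573 without hindstomach control 2 or 4) and -1.37 (adjusted p = 0.0392, at most 0.144 without knock-in library 1 or 2 and 0.0816 with the slope covariate). Klf4, a factor of differentiating epithelium, stood at 10.1, 10.4 and 7.04, then 33.4, 32.4 and 36.7, then 31.5, 47.1 and 48.8 FPKM (1.80, adjusted p = 0.00653, 0.108 with the slope covariate).

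Some forestomach factors were at hindstomach level. Gata3, a GATA factor of stratified epithelium, stood at 0.17, 0.119 and 0.121 FPKM in the knock-in-labelled libraries and 0.049, 0.179 and 0.271 FPKM in the hindstomach, against 1.7, 3.22 and 2.61 FPKM in the forestomach. All 6 libraries compared were below every forestomach control (-0.03, 95% interval -0.48 to 0.42, and -1.60, limma adjusted p = 0.00169). The homeobox factor Dlx3 stood at 0.085, 0.025 and 0.019 FPKM in the knock-in-labelled libraries and 0.123, 0.075 and 0 FPKM in the hindstomach, against 4.4, 4.98 and 1.56 FPKM in the forestomach (-0.03, 95% interval -0.61 to 0.55, and -2.06, adjusted p = 0.00169). Forestomach control 5, which shared the GC slope of the knock-in-labelled libraries, held 2.61 FPKM of Gata3 and 1.56 FPKM of Dlx3. The Wnt inhibitor Wif1 stood at 0.175, 0.088 and 0.689 FPKM, against 0.024, 0.018 and 0 and 2.25, 4.03 and 2.91 FPKM (0.35, 95% interval -0.15 to 0.85, and -1.63, adjusted p = 0.00262). Unlike Gata3 and Dlx3, it was above every hindstomach control in every knock-in-labelled library, although that difference did not pass.

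Of 22 squamous differentiation genes 6 were higher and 1 lower than in the hindstomach, and 9 were higher with the slope covariate. Serpinb5, which encodes the serpin maspin, stood at 0.355, 0.244 and 0.099 FPKM in hindstomach controls, 11.8, 8.04 and 29.5 FPKM in the knock-in-labelled libraries and 26.2, 38.6 and 33.9 FPKM in the forestomach controls (3.63, SE 0.56, limma adjusted p = 0.000969). Scel, or sciellin, a component of the cornified envelope, reached forestomach level, at 0.156, 0.202 and 0.328, then 6.38, 4.89 and 5.21, then 6.07, 6.59 and 6.69 FPKM (2.40, adjusted p = 6.7e-05, and -0.20, 95% interval -0.75 to 0.34). Anxa1, an annexin abundant in squamous epithelium, stood at 143, 127 and 122 FPKM in the hindstomach and 729, 645 and 936 FPKM in the knock-in-labelled libraries (2.53, adjusted p = 0.000217). Dapl1, a death-associated protein of stratified epithelium, remained at a reduced level, at 10.5, 6.07 and 18.3 FPKM against 1.57, 1.24 and 1.22 FPKM in the hindstomach and 75.2, 85.9 and 49.5 FPKM in the forestomach (2.32, adjusted p = 0.00648, and -2.58, adjusted p = 0.0142, 0.0778 at most without knock-in library 1 or 2).

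Among the stratified keratins, which form the filaments of squamous cells, the levels of Krt5, Krt13 and Krt15 turned on 1 library. Krt5, the basal keratin, stood at 1.74, 0.959 and 26.3 FPKM in knock-in libraries 1, 2 and 4, at 1.94, 1.29 and 0.973 FPKM in the hindstomach controls and at 301, 381 and 22.4 FPKM in forestomach controls 2, 3 and 5. Knock-in library 4 alone exceeded the hindstomach, and it matched forestomach control 5. The difference of Krt5 from the hindstomach did not pass (1.16, 95% interval -1.08 to 3.40) and was -0.03 without knock-in library 4. Krt15 stood at 10.4, 5.2 and 137 FPKM in the knock-in-labelled libraries, 18, 14.4 and 14.6 FPKM in the hindstomach and 1245, 1273 and 104 FPKM in the forestomach, and Krt13 at 0.045, 0 and 3.72, 0.31, 0.065 and 0.729 and 287, 173 and 4.09 FPKM. Against the control forestomach these 3 keratins were lower (Krt5 -4.72, Krt13 -5.22 and Krt15 -4.68, limma adjusted p = 0.0278, 0.0289 and 0.0337), although forestomach control 5 was itself far below the other two. These calls ended without knock-in library 1 or 2 (at most 0.135, 0.13 and 0.154) and with the slope covariate (0.0534, 0.0549 and 0.0572). In a fit that left out forestomach control 5, and with it knockout library 5, the differences were -6.01, -7.04 and -5.88 (adjusted p = 0.00101, 9.59e-05 and 0.00151). Krt6a, a keratin of stratified epithelium, stood at 0, 0 and 1.32 FPKM in the knock-in-labelled libraries, 0.056, 0 and 0.034 FPKM in the hindstomach and 24.7, 20.7 and 4.49 FPKM in the forestomach. It was lower than in the forestomach (-3.45, adjusted p = 0.00262), also without each knock-in-labelled library (at most 0.0192), with the covariate (0.00293) and without forestomach control 5 (4.93e-05). With the slope covariate Krt5 (3.48, adjusted p = 0.0354) and Krt15 (3.10, adjusted p = 0.0382) were higher than in the hindstomach. The keratins have close copies, and it is not stated how reads were divided between them. Krt10, of suprabasal cells, was the keratin called higher (0.75, adjusted p = 0.0417), a call lost with the slope covariate (0.77) and without any library other than knock-in library 4 (at most 0.164).

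Of 25 tight junction genes 14 were lower than in the hindstomach, and 4 with the slope covariate. The 3 called higher are a share near the 13.2% of all genes. After Cldn18, the cytoplasmic plaque protein Cgn was lower in both fits (-2.01, limma adjusted p = 0.00224). Cldn8, a barrier claudin, was higher (1.78, adjusted p = 0.00341) beside Cldn10. Of 17 microvillus genes 12 were lower, 9 with the slope covariate. Myo1a, the brush border myosin, stood at 13.5, 10.2 and 15.3 FPKM in hindstomach controls and 0.049, 0.057 and 0.434 FPKM in the knock-in-labelled libraries (-3.57, adjusted p = 0.000121). The actin-bundling protein villin, Vil1 (-2.89, adjusted p = 0.000432), and the aminopeptidase Anpep (-4.29, adjusted p = 0.000116) were lower, and Eps8l3 was listed at 0 in all 6 forestomach libraries, against 2.1, 2.08 and 3.4 FPKM in the hindstomach. Cdh17, which is also on the intestinal list, was the member of the microvillus list called higher (0.65, adjusted p = 0.0461), a call absent in every fit without a library (at most 0.15).

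Of 10 desmosome genes 1 was higher and 2 were lower, neither share above that of all genes. Perp, a tetraspan protein and target of Trp63, was the gene called higher, at 31.9, 18.4 and 27.3 FPKM in the hindstomach, 201, 180.0 and 295 FPKM in the knock-in-labelled libraries and 263, 323 and 310.2 FPKM in the forestomach (3.08, limma adjusted p = 0.000969). Pkp2, a plakophilin of simple epithelium, was lower (-0.92, adjusted p = 0.00418) yet above the forestomach (1.07, adjusted p = 0.00767). Its stratified counterpart Pkp1 stood at 0.6, 0.364 and 4.93 FPKM, against 0.138, 0.093 and 0.082 and 28.9, 40.0 and 5.5 FPKM in hindstomach and forestomach (1.09, 95% interval -0.32 to 2.50, and -3.09, adjusted p = 0.024, at most 0.122 without knock-in library 1 or 2 and 0.0534 with the slope covariate). The desmoglein Dsg3 of basal keratinocytes was listed at 0 in all 3 hindstomach controls and stood at 0.013, 0.077 and 0.199 FPKM in the knock-in-labelled libraries, against 1.89, 6.89 and 2.02 FPKM in the forestomach (knock-in minus forestomach -1.91, adjusted p = 0.00507). Of 11 hemidesmosome genes 4 were higher and 2 lower, among them the linker Dst (1.26, adjusted p = 0.00665), which was also called with the slope covariate (0.00848) and in each fit without a library.

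**Figure D5:**
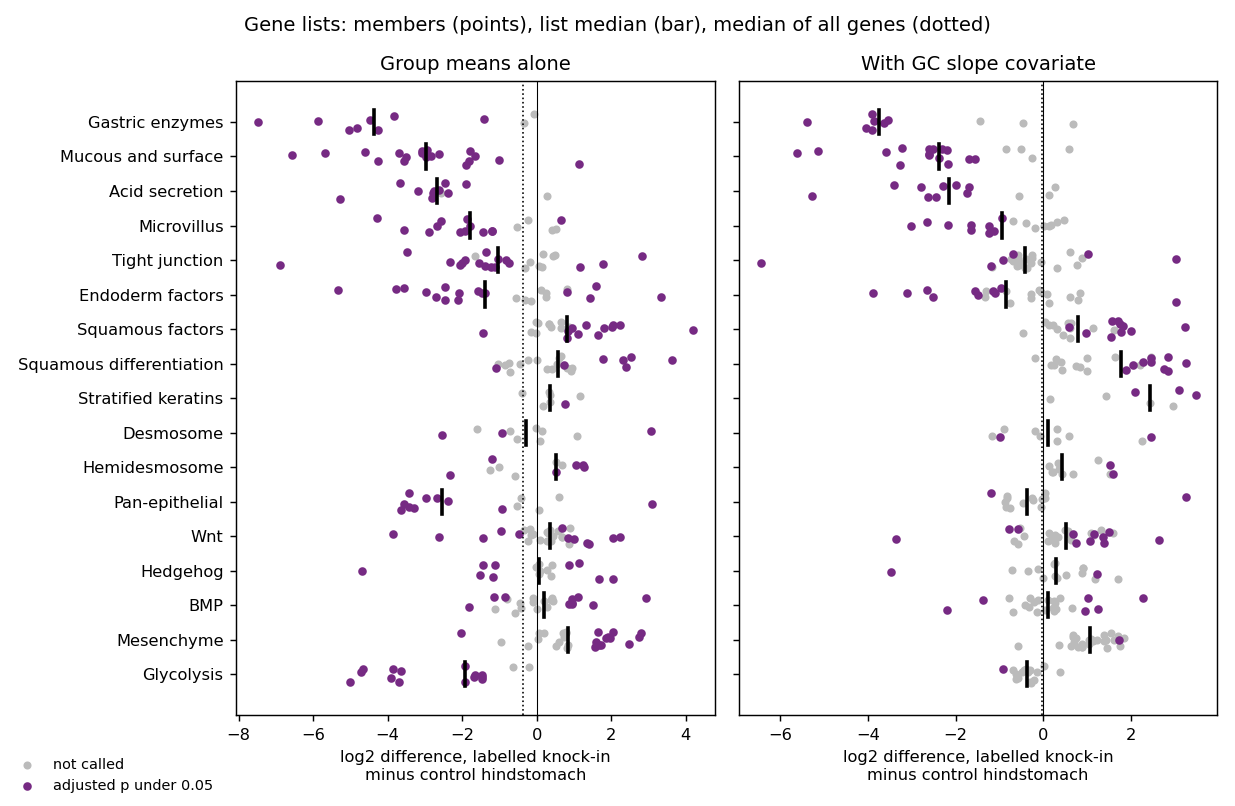
Log2 differences of the members of 17 gene lists, labelled knock-in minus control hindstomach, from the group means alone (left) and with the GC slope covariate (right). Purple points had an adjusted p under 0.05, bars mark list medians and dotted lines the median of all genes. The glandular lists lie to the left in both panels, whereas most glycolysis and pan-epithelial genes are called in the left panel alone.

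Calls among general epithelial, metabolic and proliferation genes were mostly lost with the slope covariate. Of 14 pan-epithelial genes 9 were lower without the slope covariate and 1 with it, Prom1 (-0.94 and -1.19, limma adjusted p = 0.00231 and 0.00101). Of 16 glycolysis genes 14 were lower without the covariate and 1 with it. The summed FPKM of that list was 3472, 2948 and 3264 in hindstomach controls and 696, 504 and 1231 in the knock-in-labelled libraries, but also 632 in forestomach control 5 beside 2396 and 2393 in the other forestomach controls. The ribosomal protein genes Rps15 (-6.20, adjusted p = 0.0254), Rpl18 (-6.05, adjusted p = 0.0223) and Rpl8 (-5.62, adjusted p = 0.0253) were among the 12 largest falls. Rps15 stood at 567, 383 and 477 FPKM in hindstomach controls, 2.18, 1.75 and 28.9 FPKM in the knock-in-labelled libraries and 1190.5, 476 and 7.33 FPKM in the forestomach controls. With the slope covariate these 3 differences lay between -0.50 and -0.16 and did not pass, and they did not pass without any one library other than knock-in library 4 (at most 0.0902, 0.0777 and 0.0922). The 3 sterol synthesis genes called higher, with Idi1 at 1.07 (adjusted p = 0.0132, at most 0.0581 without knock-in library 1 or 2), the 11 called lower of 21, and the 10 higher and 12 lower of 30 cell cycle genes also rested on the fit without the covariate.

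A few signalling genes differed widely between the knock-in-labelled libraries and the control hindstomach. Ihh, the Hedgehog ligand of the glandular stomach and gut, stood at 28.8, 25.1 and 23.3 FPKM in hindstomach controls and at 0, 0 and 0.101 FPKM in the knock-in-labelled libraries, with 0.033, 0.099 and 0 FPKM in the forestomach controls (-4.69, SE 0.63, limma adjusted p = 0.000402). Its relative Shh did not pass, at 39.6, 40.1 and 36.6 FPKM in the hindstomach and 60.1, 72.5 and 32.7 FPKM in the knock-in-labelled libraries (0.42, 95% interval -0.56 to 1.40). In the Wnt list of 30 genes 5 (16.7%) were lower and 7 (23.3%) higher, against 37.0% and 13.2% of all genes. With the slope covariate 3 were lower and 8 higher, where 6.3% and 3.21% of all genes were. Fzd5, a Wnt receptor of the gut epithelium, stood at 31, 32.4 and 28.3 FPKM in the hindstomach, 1.02, 0.747 and 1.91 FPKM in the knock-in-labelled libraries and 0.889, 1.08 and 0.827 FPKM in the forestomach (-3.86, SE 0.25, adjusted p = 3.34e-06). The knock-in-labelled libraries held Lgr5 and Lgr4 without the hindstomach level of Fzd5. Lef1, a transcription factor of Wnt signalling (1.34, adjusted p = 0.00103), and Rspo3, an R-spondin (2.23, adjusted p = 0.00441, 0.0658 with the slope covariate), were higher.

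Of 23 BMP genes 7 (30.4%) were higher and 3 (13.0%) lower, against 13.2% and 37.0% of all genes. Fst, or follistatin, which binds activins and BMPs, stood at 1.9, 4.22 and 0.737 FPKM in the hindstomach, 30.4, 17 and 19.8 FPKM in the knock-in-labelled libraries and 36, 34.7 and 78.3 FPKM in the forestomach (2.94, limma adjusted p = 0.000668). The receptor Bmpr1b was lower (-1.81, adjusted p = 8.4e-05). The ligand Bmp4 differed by 1.10 (adjusted p = 0.0144, at most 0.0587 without hindstomach control 4 or knock-in library 1) and from the forestomach by -1.78 (adjusted p = 0.0051). The receptor Fgfr2 was higher (2.05, adjusted p = 0.00107) and Fgfr4 lower (-2.65, adjusted p = 0.00164). Of 16 Notch genes 4 were lower and 2 higher, neither share above that of all genes (37.0% and 13.2%). Those higher were the Notch targets Nrarp (1.42, adjusted p = 0.000713) and Hes1 (0.95, adjusted p = 0.00369), whereas Hey1, Hey2 and Heyl were not called. The ligand Dll4 was among the lower (-1.19, adjusted p = 0.00255). Of 14 retinoic acid genes 4 were lower and 2 higher, the latter a share near the 13.2% of all genes. Those higher were Aldh1a1 and the receptor Rarb (0.91, adjusted p = 0.00498).

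Some mesenchyme and mesothelium genes also differed between the groups. Of 26 mesenchyme genes 12 were higher than in the hindstomach and 1 lower, and 1, Twist1 (1.98, limma adjusted p = 0.00173), was higher with the slope covariate. Leaving out a library in turn gave 3 to 12 higher, and the fit with the replicate number as a block gave 1. The summed FPKM of the list was 202, 380.0 and 107 in hindstomach controls, 807, 326 and 592 in the knock-in-labelled libraries and 1725, 1156 and 1779 in forestomach controls, so the first 2 ranges overlapped. No mesenchyme gene tested was listed at 0 throughout a group. Dcn, a proteoglycan of fibroblasts, stood at 14.7, 12.9 and 7.67 FPKM and 107, 37.5 and 76.7 FPKM in hindstomach controls and knock-in-labelled libraries (2.47, adjusted p = 0.00722, 0.107 with the slope covariate). Of 8 mesothelium genes 4 were higher and 1 lower in both fits, with Wt1, the Wilms tumour factor, at 1.08, 3.4 and 0.969 and 11.9, 14.9 and 14.3 FPKM (2.48, adjusted p = 0.00114). The summed level was nevertheless lower, at 159, 128 and 163 against 42.8, 40.4 and 122 FPKM. That sum includes Krt19, which is also on the simple keratin list, so it does not measure mesothelium alone. Msln, which encodes mesothelin and is also made by gastric epithelium, was the member called lower (-4.47, adjusted p = 0.000196). Fst, Rspo3, Lef1, Bmp4 and Twist1 are genes that mesenchyme also transcribes, and its part in their differences was not tested. The epithelial markers Epcam and Cdh1 did not pass between the groups (0.05 and -0.41, 95% intervals -0.54 to 0.65 and -1.17 to 0.34).

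Sums over muscle, leukocyte, endothelial and enteric genes overlapped between the groups, and red blood cell genes had lower sums in the knock-in-labelled libraries. Smooth muscle genes summed to 64.3, 120.4 and 42.4 FPKM in hindstomach controls and 69.5, 27.1 and 182 FPKM in the knock-in-labelled libraries. Leukocyte genes summed to 17.4, 34.2 and 15.4 and 35.1, 18 and 23.8 FPKM, endothelial genes to 9.65, 8.18 and 3.08 and 10.1, 4.83 and 11.9 FPKM, and enteric neuron and glia genes to 62.7, 111 and 33.8 and 115, 50.5 and 87.5 FPKM. Red blood cell genes were lower for 3 of 8, a share near the 37.0% of all genes, with sums of 829, 753 and 1239 and 209, 145 and 343 FPKM, and did not pass with the slope covariate.

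Among the other genes with the largest excess over the hindstomach, most were also carried by the control forestomach. Ehf, an Ets factor of epithelium, stood at 4.82, 4.62 and 5.75 FPKM in the hindstomach, 46.5, 46.9 and 102 FPKM in the knock-in-labelled libraries and 21.1, 33 and 28 FPKM in the forestomach (3.35, limma adjusted p = 0.000605). The metalloreductase Steap1 (3.19, adjusted p = 0.000642), the caveolin Cav2 (3.10, adjusted p = 6.7e-05) and Sptlc3, a subunit of serine palmitoyltransferase (3.08, adjusted p = 0.000232), were higher in each fit without a library and with the slope covariate. Eno1b, a near copy of the enolase gene Eno1, was listed at 0 in all 3 hindstomach controls and stood at 29.7, 11.6 and 30.2 FPKM in the knock-in-labelled libraries (adjusted p = 0.0314). It was also at 13.2 FPKM in forestomach control 5 and at or near 0 in the other forestomach controls, and its call ended in every fit without a library (at most 0.0902) and with the slope covariate (0.802). Eno1 itself was lower, at 240.5, 207 and 246 FPKM in hindstomach controls and 4.65, 3.21 and 31 FPKM in the knock-in-labelled libraries (adjusted p = 0.0193, 0.288 with the covariate and at most 0.075 without a library). Reads shared between the copies make both values uncertain.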

How the data were processed

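RNA was extracted from epithelial cells on NucleoSpin columns and made into directional NEBNext Ultra II libraries, per the labels' protocols. The authors deposited 1 table of FPKM values with 1 column per library. The submitters' processing notes name the build mm9; not given in the sources used here are the aligner, the program behind the FPKM values and the use of strand. Promoter sequences and transcript GC content came from GRCm38 references, which are not that build, and no coordinate was converted.

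Of 22906 entries 108 exact duplicates were dropped, and the 12694 genes that reached 1 FPKM in 3 or more of the 14 libraries were tested. Values were compared as log2(FPKM + 1), a scale that understates the change of low genes, with limma 3.58.1 in R 4.3.3 (lmFit with 1 mean per group over all 14 libraries, eBayes with trend and robust options, statmod 1.5.0). Calls used an adjusted p under 0.05 (Benjamini-Hochberg, over all genes tested). A design of 3 against 3 cannot reach an exact two-sided permutation p below 0.1, so single values have no such test. No pair of libraries shared more than 0.8% identical values above 0. Transcript GC content was matched for 99.3% of genes, and the slope of each library on it entered an alternative fit as a covariate. Relative depth was read from the commonest ratio of values under 0.1 FPKM, which lay within 0.05 log2 of a common solution in 86.8% of library pairs. The fit was tested on simulated data.

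The members, gene lists and alternatives were chosen with earlier results of these data known. Genes were named by a rule: the 5 markers, Gata4, Gata5 and Gata6, the 12 largest called differences in each direction whose libraries did not overlap, leaving out predicted models and pseudogenes, and for each list up to 3 called members in each direction, or with none called the 2 members with the highest mean. Not every gene of the rule is printed, and some genes are not reported here. Other genes named in the text were chosen after their values were seen. Of the 35 lists, the pancreas and lung list had no gene that passed the filter, and several lists are given by their counts in the closing section. The alternatives were the GC slope covariate, a replicate block, left-out libraries, quantile normalization, a common sum, a fold threshold, array weights, other filters, another pseudocount, eBayes without its options and the 6 libraries alone. The fit without the 5 knockout libraries was added after seeing the data.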

Additional observations from a re-analysis of the deposited data

How the results depend on the processing

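The counts of 4697 genes lower and 1670 higher depended on the settings. Rescaling to a common sum gave 3607 and 2704, quantile normalization 2842 and 3445, array weights 7110 and 4140, a test beyond 1 log2 unit 162 and 32, and the GC slope covariate 800 and 407. Leaving out the 5 knockout libraries gave 3054 and 1139. Leaving out 1 library in turn gave 996 to 5605 lower and 422 to 1803 higher. Numbers 2 and 4 are the replicate numbers the groups share. The deviations of same-numbered libraries correlated at -0.269 and 0.024, and those of differently numbered libraries at -0.207 to 0.285. With so few libraries these values cannot tell whether the numbers pair samples, and the main fit used no pairing. A fit with the replicate number as a block called 483 lower and 189 higher, with Dlx3 at 0.07. Among the genes of the naming rule and the others named, those called that changed sign were the integrin Itga3 (0.23), Plec (0.14) and Ddit3 (0.12) with the covariate and Maml1 (0.16) with quantile normalization. Genes that did not pass and changed sign with the covariate were Esam (0.55), Sox21 (-0.28), Epcam (-0.24), Gata3 (0.04), Dlx3 (0.32) and Shh (-0.72). With quantile normalization they were Esam (0.7), Lgr4 (0.1), Gata3 (0.28) and Dlx3 (0.23), and with a common sum Esam (0.19), Foxa1 (0.09), Lgr4 (0.32) and Gata3 (0.02). Array weights turned Krt13 (-0.38), Krt6a (-0.05), Krt15 (-0.59), Gata3 (0.04) and Dlx3 (0.01), and a pseudocount of 0.1 turned Krt13 (-0.0). Leaving out 1 library in turn gave ranges of Esam -0.3 to 0.19, Epcam -0.01 to 0.16, Krt5 -0.03 to 1.87, Krt13 -0.39 to 0.73, Krt6a -0.04 to 0.56, Krt15 -0.98 to 1.26, Gata3 -0.11 to 0.03 and Dlx3 -0.08 to 0.01. The cause of these changes was not tested. Depth limits genes near 0, for which FPKM gives no counting error.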

Other observations

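Several gene lists that were not described above can be given by their counts against the same shares of all genes (37.0% lower and 13.2% higher). Of 6 simple keratin genes 2 were lower in the knock-in-labelled libraries than in control hindstomach, Krt8 (-3.13, limma adjusted p = 0.0183) and Krt18 (-4.46, adjusted p = 0.0154), the paired keratins of simple epithelium. Krt8 did not pass with the slope covariate (0.361), and neither passed without hindstomach control 4 or knock-in library 1 or 2 (at most 0.0752 and 0.0662). Of 5 intestinal genes 3 were lower and 1 higher, all of them named above. Of 16 Hedgehog genes 5 were lower and 4 higher, and with the slope covariate 1 and 1, Ihh and the transcription factor Gli1. Of 19 FGF genes 6 were lower and 4 higher. Of 11 stress genes 4 were lower and 2 higher, the immediate early gene Fos (0.83, adjusted p = 0.022) and the heat shock gene Hspa1b (0.97, adjusted p = 0.0114, 0.0884 with the slope covariate). Fos did not pass without a hindstomach control or knock-in library 1 (at most 0.0611). Among markers of other cells, 2 of 12 smooth muscle genes, 1 of 14 leukocyte genes (Mrc1, a macrophage receptor, 1.66, adjusted p = 0.0299) and 1 of 14 enteric neuron and glia genes were called, all higher, and Mrc1 did not pass without hindstomach control 2 or 4 or knock-in library 1 or 2 (at most 0.108).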
